A study of Mus musculus with 18 samples.

Results

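The genes described here were the knocked-out gene Hmga2, its paralog Hmga1, and the genes Lin28a, Lin28b, Igf2bp1, Igf2bp2 and Igf2bp3, 7 genes of the 45706 in the count table. They were chosen by symbol, as the chromatin protein genes of the Hmga family together with RNA-binding protein genes known as targets of the let-7 microRNAs, and all 7 passed the filter on low counts. RNA-seq counts were available for 18 libraries of mouse induced pluripotent stem cells (iPSCs), in 6 groups of 3 biological replicates. The Hmga2 knockout (KO) cells came from the clones KO#1 and KO#2. The labels name no clone for the cells that were wild type (wt) for Hmga2, and the study's methods speak of a pair of wt clones without saying which gave these libraries. At 0 h the cells had been grown with LIF and 2i (inhibitors of MEK and GSK3) on inactivated fibroblast feeders. At 24 h they had spent a day off feeders, on coated plates with Activin A and bFGF, a change that takes them from the naive state towards epiblast-like cells (EpiLCs). Each KO group is a single clone, so within it a difference between clones and an effect of the genotype cannot be told apart. The part of Hmga2 that is deleted is not given in the sources used here.

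Hmga1 and Hmga2 encode small proteins that bind AT-rich DNA through AT-hooks and shape chromatin, and both are high in early embryonic cells. Lin28a and Lin28b encode RNA-binding proteins that block the maturation of let-7, a microRNA family that accumulates as cells differentiate. Mature let-7 in turn pairs through its seed with sites in the 3′ UTRs of Lin28a, Lin28b, Hmga2 and the Igf2bp genes, which encode proteins that bind and stabilise messenger RNAs.

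The let-7 seed (bases 2 to 8) is the part that pairs with these sites, and 10 mature mouse let-7 family miRNAs in RefSeq (GRCm38.p6) share the seed GAGGUAG, while let-7j has GAGGUAU. The following mature sequences show their seeds in capitals, the shared one in all but let-7j. They are let-7a (Mirlet7a-1, chr13:48538239-48538260, minus strand), let-7g (chr9:106178846-106178867, plus strand), miR-98 (chrX:151913229-151913250, plus strand) and let-7j (chr3:140028281-140028304, plus strand).
mmu-let-7a-5p: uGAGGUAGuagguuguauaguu
mmu-let-7g-5p: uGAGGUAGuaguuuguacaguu
mmu-miR-98-5p: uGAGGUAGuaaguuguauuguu
mmu-let-7j: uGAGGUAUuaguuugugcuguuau

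The DNA letters that pair with the shared seed, CTACCTC, were searched on the sense strand of 1 annotated 3′ UTR per gene (GENCODE release M21, GRCm38). All 7 genes held at least 1 match, against 1695 of 20771 annotated 3′ UTRs (8.16%). Hmga2, Lin28b and Igf2bp1 each had 4 matches, Lin28a had 2, and Hmga1, Igf2bp2 and Igf2bp3 had 1 each. Among 3′ UTRs within 20% of the same length, at least as many matches were found in 0.0979% for Hmga2, 0.269% for Lin28b, 0.418% for Igf2bp1 and 2.05% for Lin28a. For Igf2bp3, Igf2bp2 and Hmga1 these shares were 12.7%, 11.5% and 8.0%. The genes were put together as known let-7 targets, so these counts describe them and are no test. The following stretches, at most 30 bases each, are shown because they hold the match (capitals) in its transcript. A final a marks matches followed by A.
Hmga2, site 1, 21 bases after the stop codon, chr10:120364224-120364251: ggggcgccgacattcaatttCTACCTCa
Hmga2, site 2, chr10:120362987-120363016: caataatccccactcctcaataCTACCTCt
Hmga2, site 3, chr10:120362549-120362578: ggacttcctgatttgcaaggaaCTACCTCc
Hmga2, site 4, chr10:120361691-120361720: gttgtacaatcaaaacacactaCTACCTCt
Hmga1, site 1, chr17:27563270-27563299: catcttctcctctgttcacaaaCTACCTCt
Lin28a, site 1, chr4:134005189-134005218: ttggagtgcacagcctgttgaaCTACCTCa
Lin28a, site 2, chr4:134004551-134004580: atgctttgagatcgccacaaacCTACCTCa
Lin28b, site 1, chr10:45381022-45381051: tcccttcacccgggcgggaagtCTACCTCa
Igf2bp1, site 1, chr11:95961778-95961807: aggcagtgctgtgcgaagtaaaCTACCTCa
Igf2bp2, site 1, chr16:22059473-22059502: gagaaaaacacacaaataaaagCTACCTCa
Igf2bp3, site 1, chr6:49086787-49086816: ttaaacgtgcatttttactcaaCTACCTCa

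**Figure D1:**
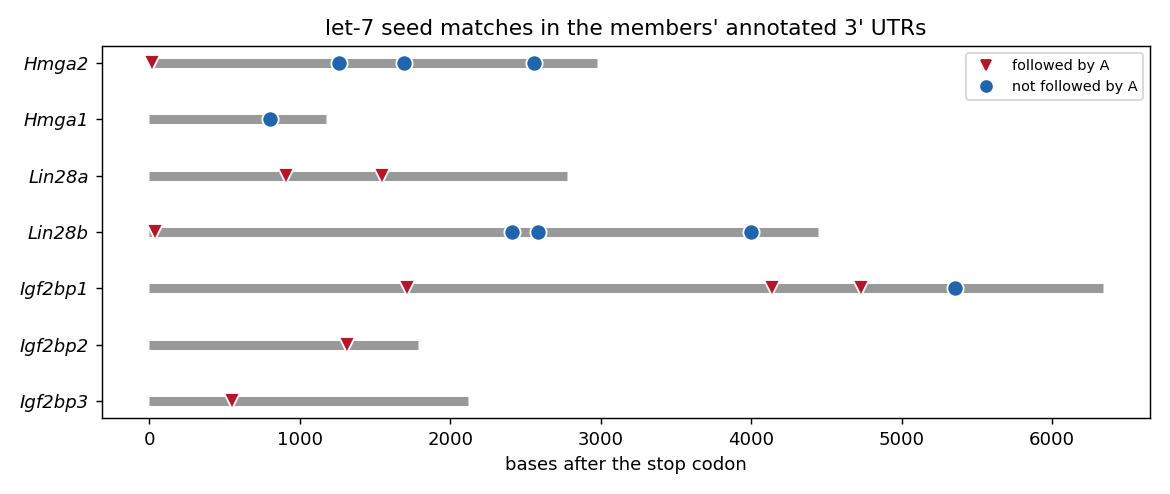
Matches to the let-7 seed along the annotated 3′ UTR of each gene, drawn to scale in bases after the stop codon, as triangles where the match is followed by A and circles where it is not. Hmga2 and Lin28b each have a match close to the stop codon, at 21 and 36 bases, and Igf2bp1 has 3 of its 4 matches followed by A.

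The miRNAs themselves were not measured by these libraries. The count table lists 10 let-7 family precursor genes, and all were at 0 counts in every library, which the 3-count floor bounds at between 0.116 and 0.983 CPM per library. CPM are counts divided by the library total times its TMM factor, a factor that sets the bulk of the genes level between libraries. Total counts were 3466436 to 23872837 per library. The TMM factors were 0.507 to 0.801 in wt cells at 24 h and 1.31 to 1.45 in the KO#2-labelled libraries at that time. With library totals alone, the median log2 difference over all genes moved from 0.20 to 1.24 between these groups. Over the 24 h it moved from 0.03 to -0.58 in wt cells and from 0.00 to -0.78 in KO#1. For KO#2 at 0 h against wt cells it moved from 0.10 to 0.54. It moved less for KO#2 over the 24 h (-0.03 to -0.06) and for KO#1 against wt cells (0.02 to 0.16 at 0 h, -0.02 to -0.05 at 24 h). Directions are thus relative to the bulk of the genes. At 24 h Hmga2 was not called lower than in wt cells in either KO line. Only the libraries that carry the label KO#2 overlapped with wt cells in it, through replicate 1. They are called the KO#2-labelled libraries here. The switch out of the naive state was seen in each line, with 8 of 10 naive markers falling and 7 of 8 primed markers rising at 24 h, where 50.7%, 40.8% and 26.0% of all genes were called in wt cells, KO#1 and the KO#2-labelled libraries. Of the 10 naive markers, 5 were higher than in wt cells at 24 h in KO#1 (9.86% of all genes called, 3.61% lower) and 6 in the KO#2-labelled libraries (37.3% called, 16.0% lower). Of the 8 primed markers 4 and 2 were lower. The part of these differences in the results on the 7 genes was not tested.

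Calls rest on the quasi-likelihood test of edgeR at an adjusted p under 0.05 (Benjamini-Hochberg, over 16619 genes). At 24 h against 0 h, 6 of the 7 genes changed in wt cells, where 50.7% of all genes were called. Hmga1, Lin28a and Lin28b rose, and Hmga2, Igf2bp1 and Igf2bp2 fell. In KO#1, 4 of 7 changed against 40.8% of all genes, and in the KO#2-labelled libraries 3 of 7 against 26.0%. Without replicate 3 of wt cells at 0 h, 3 of the 7 were called in wt cells. The count there was 4 without replicate 1 at 0 h, or without replicate 1 or 2 at 24 h. In KO#1, 2 were called without replicate 1 at 0 h or without replicate 2 at 24 h. The KO#1 count was 3 without replicate 1 or 3 at 24 h. The count in the KO#2-labelled libraries fell to 2 without replicate 2 at 0 h or without replicate 1 at 24 h.

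Between KO and wt cells, each gene that was called with TMM scaling was lower in the KO cells. With library totals alone this direction turned in the KO#2-labelled libraries at 24 h, where 4 of 7 were called and 3 of them were higher, Lin28b (1.54, adjusted p = 0.00217), Igf2bp1 (1.23, adjusted p = 0.0140) and Igf2bp3 (0.95, adjusted p = 0.0222). Of all genes, 61.4% were called in that setting, with a median log2 difference of 1.24. At 0 h, 3 of 7 were lower in KO#1, where 2.68% of all genes were called lower and 6.67% in either direction. At the same time 5 of 7 were lower in the KO#2-labelled libraries, against 16.6% called lower and 38.1% in all. At 24 h, 2 of 7 were lower in KO#1 (3.61% of all genes lower, 9.86% in all) and 1 of 7 in the KO#2-labelled libraries (16.0% lower, 37.3% in all). With the replicate number as a block, which pairs the libraries of KO#1 and wt cells at 24 h, 3 of 7 were lower there, Lin28b being the third (-1.11, adjusted p = 0.0303). The median log2 difference of the 7 genes was -1.05, -1.52, -1.10 and -0.08 in these comparisons, in the same order, against 0.02, 0.10, -0.02 and 0.20 over all genes. Without replicate 3 of wt cells at 0 h the counts at 0 h fell to 1 in KO#1 and 3 in the KO#2-labelled libraries. Without replicate 2 of either KO line at 0 h they also fell to 1 and 3. With any other 1 library left out, the count at 0 h was 2 in KO#1 and 4 or 5 in the KO#2-labelled libraries. Both KO lines were compared with the same wt libraries at each time.

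**Figure D2:**
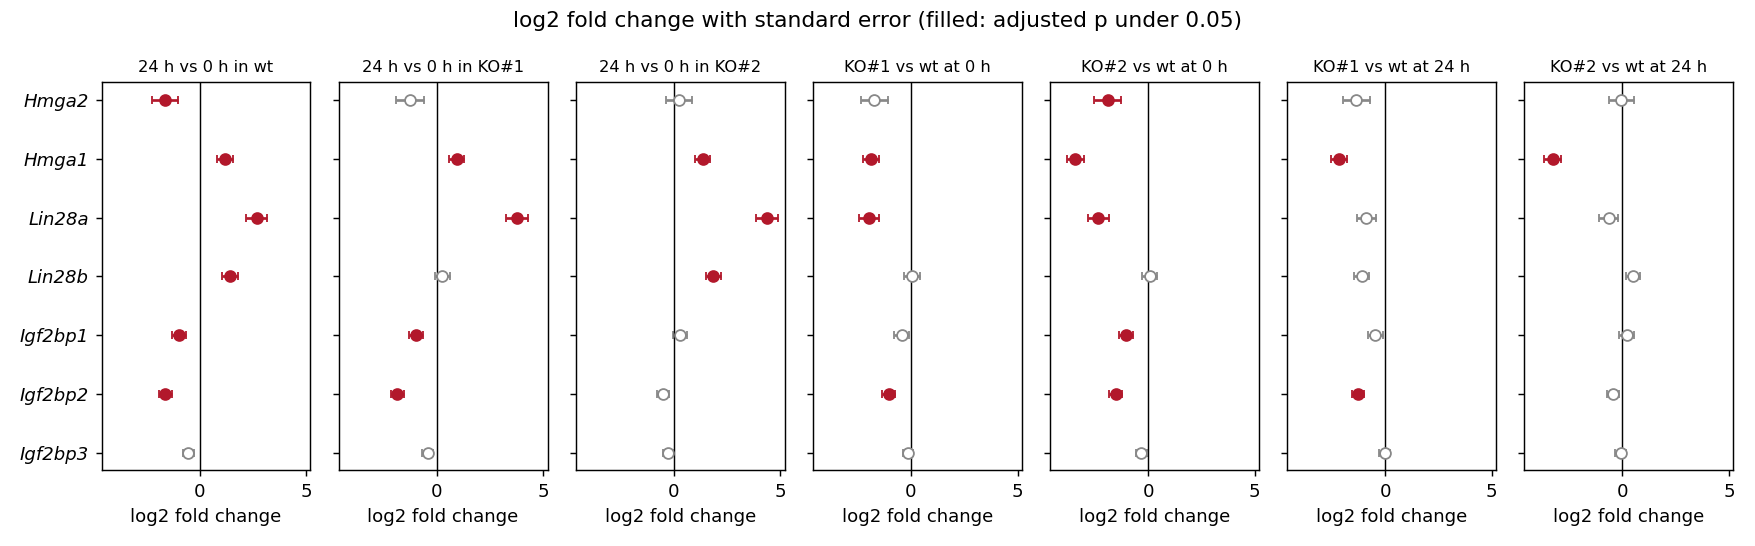
Log2 fold change of each gene with its standard error in the 7 comparisons, filled where the adjusted p was under 0.05. Lin28a lies to the right of 0 in all lines at 24 h (2.68 to 4.37), and Hmga1 lies to the left of 0 in each comparison of KO with wt cells (-3.41 to -1.88).

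Hmga2 (ENSMUSG00000056758, chr10:120361275-120476469, minus strand) was low in every group, and the KO libraries were not free of its reads. In wt cells at 0 h it stood at 17.4, 13.3 and 22.3 CPM in replicates 1, 2 and 3. KO#1 had 10.2, 4.59 and 1.75 CPM and the KO#2-labelled libraries had 4.10, 1.84 and 8.24 CPM. All 6 KO libraries lay below all 3 wt libraries at 0 h. In bulk RNA, fewer cells of a type and less RNA per cell cannot be told apart. The log2 difference was -1.90 (SE 0.62, adjusted p = 0.0230) in the KO#2-labelled libraries and -1.71 (SE 0.63, adjusted p = 0.124) in KO#1, which did not pass. The former call was lost without wt replicate 3 (-1.68), without replicate 1 (-1.81) or without replicate 2 (-1.52) of the KO#2-labelled libraries, and KO#1 passed without its replicate 1 (-2.59). With library totals alone the former was -1.44 (adjusted p = 0.0583), and with no filter on low counts KO#1 passed (adjusted p = 0.000524).

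At 24 h the wt libraries had fallen to 5.86, 5.51 and 5.93 CPM, a log2 fold change of -1.61 (SE 0.62, adjusted p = 0.0362). This call was kept without wt replicate 2 at 0 h and lost without any other of the 6 wt libraries, with log2 fold changes of -1.79 to -1.39. KO#1 had 3.67, 2.25 and 0.871 CPM, all below the wt libraries, with a log2 difference of -1.36 (SE 0.64, adjusted p = 0.220, and 0.0123 with no filter on low counts). The KO#2-labelled libraries had 10.4, 3.01 and 3.47 CPM. Replicate 1 lay above each wt library at 24 h and the other two lay below them, so the groups overlapped. The difference there was -0.04 (SE 0.60, adjusted p = 0.966), -0.82 without replicate 1, and 1.01 with library totals alone. Over the 24 h both KO lines overlapped between times. The change was -1.26 in KO#1 (SE 0.66, adjusted p = 0.133), which passed with library totals alone (-2.17, adjusted p = 0.00733), with no filter on low counts (adjusted p = 0.0120) and without replicate 3 at 0 h (-1.73). In the KO#2-labelled libraries it was 0.25 (SE 0.60, adjusted p = 0.797). The measured Hmga2 level was therefore not shown to be lower than in wt cells in this group at 24 h. Since the deleted part is not given, reads from outside it cannot be told apart from reads of an intact gene, and the level is no full check of the label. The counts behind these values were 14 to 268 per library, so single libraries carry a wide counting error. An antisense gene over Hmga2, 1700006J14Rik, had 0 to 24 counts.

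**Figure D3:**
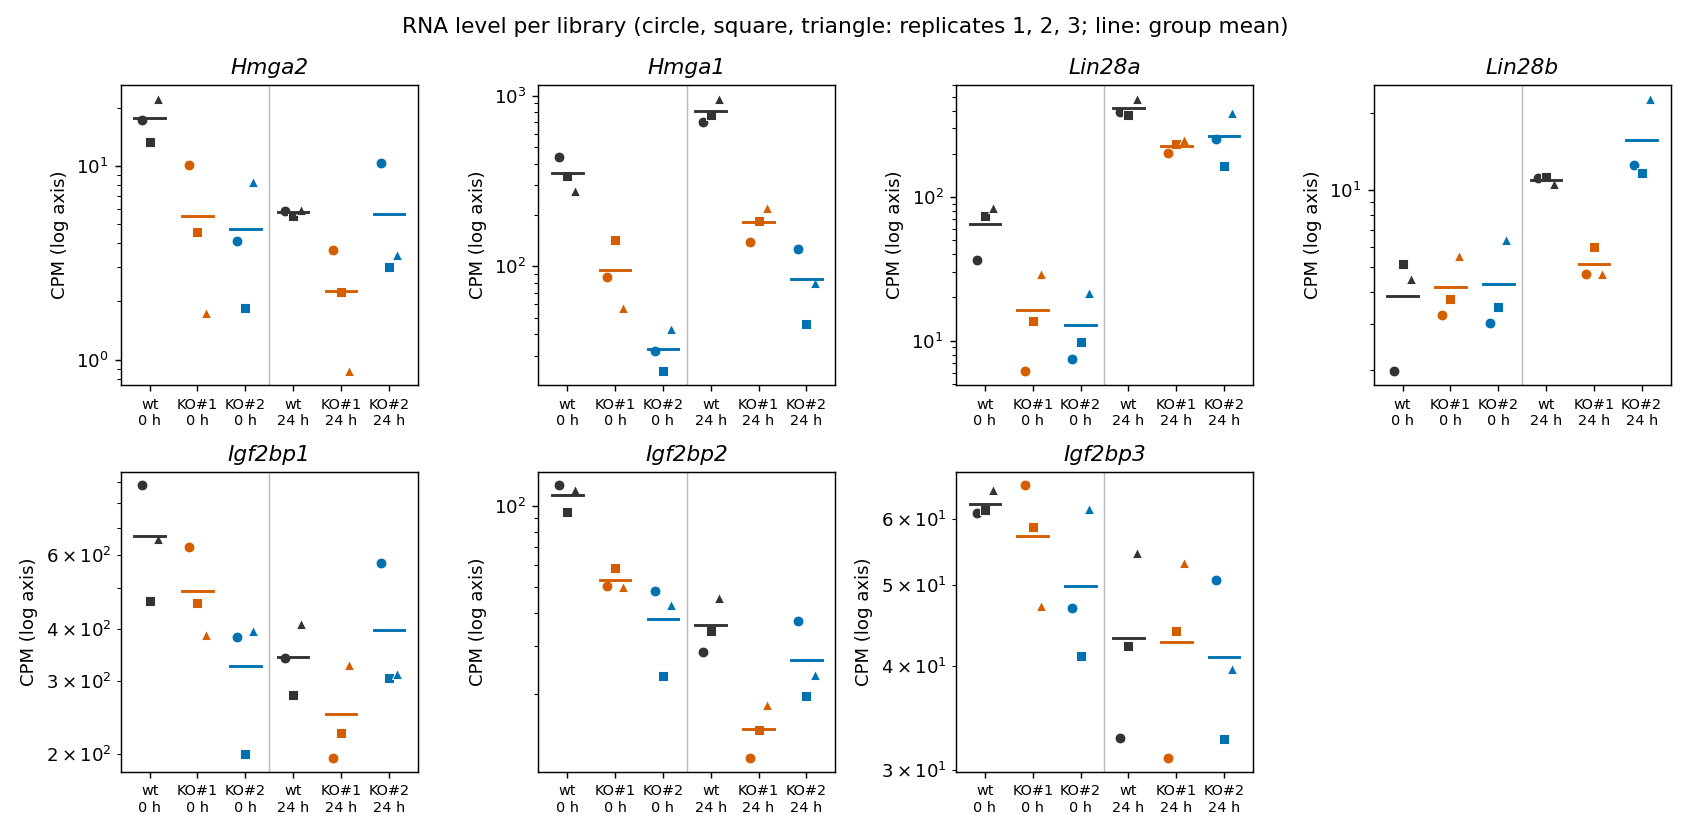
CPM of each gene in each library on log axes, with circles, squares and triangles for replicates 1, 2 and 3 and a line at the group mean, for wt (black), KO#1 (orange) and KO#2-labelled libraries (blue). Hmga1 lies lower in all 12 KO libraries than in the wt libraries of the same time.

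Hmga1 (ENSMUSG00000046711, chr17:27556497-27563674, plus strand), the paralog with the same AT-hooks, was called lower in both KO lines at both times, as no other of the 7 genes was. Part of its reads can also match elsewhere in the genome, and how such reads were assigned is not given in the sources used here, so its levels and the differences drawn from them are those of the counts assigned to Hmga1 and are uncertain, the calls included. At 0 h it stood at 435, 338 and 278 CPM in wt cells. In KO#1 the values were 86.7, 142 and 56.9 CPM and in the KO#2-labelled libraries 31.8, 24.3 and 42.7 CPM. The log2 difference was -1.88 (SE 0.37, adjusted p = 0.00415) for KO#1 and -3.41 (SE 0.40, adjusted p = 1.42e-05) for the KO#2-labelled libraries. At 24 h wt cells had 698, 772 and 961 CPM, KO#1 139, 185 and 221 CPM, and the KO#2-labelled libraries 127, 45.7 and 79.4 CPM. No KO library reached a wt library of the same time. The differences were -2.16 (SE 0.38, adjusted p = 0.000946) and -3.27 (SE 0.39, adjusted p = 1.56e-05), and these 4 calls held with any 1 library left out, between -3.69 and -1.62.

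Hmga1 rose during the 24 h in each line, by 1.21 in wt cells (SE 0.37, adjusted p = 0.0109), 0.93 in KO#1 (SE 0.37, adjusted p = 0.0489) and 1.35 for libraries with the label KO#2 (SE 0.37, adjusted p = 0.0117). The call was lost in wt cells without replicate 3 at 0 h (1.07) or with library totals alone (0.64). It was lost in the KO#2-labelled libraries without replicate 2 at 0 h (1.18) or replicate 1 at 24 h (0.93). In KO#1 it was lost without replicate 1 (0.88) or 3 (0.67) at 0 h, without replicate 2 (0.91) or 3 (0.76) at 24 h, with library totals alone (0.19), with at least 10 counts in every library or only the groups compared (both adjusted p = 0.0551), and with the replicate number as a block (0.92, adjusted p = 0.0646). The annotated end of Hmga1 overlaps AI413582 on the other strand, which had 8 to 129 counts.

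Lin28a (ENSMUSG00000050966, chr4:134003330-134018841, minus strand), whose protein binds the let-7 precursor and blocks its processing, rose most of the 7 genes in each line. In wt cells it was at 36.7, 73.4 and 84.2 CPM at 0 h and at 393, 374 and 484 CPM at 24 h. In KO#1 it went from 6.12, 13.8 and 29.2 CPM to 201, 233 and 248 CPM. In the KO#2-labelled libraries it went from 7.43, 9.88 and 21.5 CPM to 255, 165 and 382 CPM. The groups did not overlap between times in any line. The rise was 6.4-fold in wt cells (log2 2.68, SE 0.49, adjusted p = 0.000276). KO#1 rose 13.7-fold (log2 3.77, SE 0.52, adjusted p = 4.22e-05) and 20.7-fold was reached by the KO#2-labelled libraries (log2 4.37, SE 0.53, adjusted p = 1.82e-05).

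At 0 h Lin28a was lower in both KO lines, and all 6 KO libraries lay below the lowest wt library. The log2 difference was -1.97 (SE 0.48, adjusted p = 0.0174) in KO#1 and -2.33 (SE 0.49, adjusted p = 0.00174) in the KO#2-labelled libraries. The call for KO#1 was lost without wt replicate 2 (-1.87) or 3 (-1.74), without KO#1 replicate 1 (-1.58) or 2 (-1.85), and when only the groups compared were fitted (adjusted p = 0.0666). At 24 h the differences were -0.88 (SE 0.46, adjusted p = 0.281) and -0.64 (SE 0.46, adjusted p = 0.285), and neither passed. The latter was 0.36 with library totals alone. KO#1 lay below wt cells in each library at 24 h, and the KO#2-labelled libraries overlapped with wt cells. With only the groups compared in the fit, KO#1 was called at 24 h (-0.85, adjusted p = 0.0218).

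Lin28b (ENSMUSG00000063804, chr10:45376620-45486395, minus strand), which encodes the second Lin28 protein, had low levels at 0 h that were alike in the 3 lines. They were 1.97, 5.14 and 4.50 CPM in wt cells, 3.26, 3.76 and 5.54 CPM in KO#1, and 3.04, 3.50 and 6.37 CPM in the KO#2-labelled libraries. The lowest value rests on 6 counts. The log2 differences from wt cells, 0.06 (SE 0.38) and 0.07 (SE 0.36), did not pass and turned sign with 1 library left out.

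At 24 h wt cells had 11.2, 11.2 and 10.6 CPM, KO#1 4.70, 6.03 and 4.73 CPM, and the KO#2-labelled libraries 12.5, 11.7 and 22.7 CPM. Lin28b rose in wt cells by 1.42 (SE 0.36, adjusted p = 0.00380) and in the KO#2-labelled libraries by 1.86 (SE 0.35, adjusted p = 0.000906), with no overlap between times, though with library totals alone the call in wt cells was lost (0.77, adjusted p = 0.133). In KO#1 the change was 0.27 (SE 0.36, adjusted p = 0.579), with overlap, and it was -0.55 with library totals alone. The test of KO#1 against wt cells in this response gave -1.16 (SE 0.51, adjusted p = 0.447), so the lines are not shown to differ in it. All KO#1 libraries at 24 h lay below the wt libraries, with a difference of -1.10 (SE 0.35, adjusted p = 0.0559). It was -1.11 (adjusted p = 0.0303) with the replicate number as a block, and in this comparison replicates with the same number deviated together. It also passed with DESeq2 (adjusted p = 0.0216), with no filter on low counts (adjusted p = 0.0381) and with only the groups compared (adjusted p = 0.0170). The KO#2-labelled libraries all lay above the wt libraries at 24 h, with a difference of 0.51 (SE 0.34, adjusted p = 0.247), and passed with library totals alone (1.54).

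The Igf2bp genes encode the IMP family of messenger RNA-binding proteins. Igf2bp1 (ENSMUSG00000013415, chr11:95957163-96005940, minus strand) was the most abundant of the 3. At 0 h it was at 884, 465 and 655 CPM in wt cells, 629.9, 462 and 386 CPM in KO#1, and 382, 200.02 and 396 CPM in the KO#2-labelled libraries. The KO#2-labelled libraries all lay below the wt libraries (log2 -1.04, SE 0.34, adjusted p = 0.0253), and KO#1 overlapped with them (-0.44, SE 0.34, adjusted p = 0.515). The former call was lost without wt replicate 1 (-0.81) or 3 (-1.04), without replicate 2 of the KO#2-labelled libraries (-0.78), with library totals alone (-0.53), and with at least 10 counts in every library (adjusted p = 0.0542). At 24 h they overlapped with wt cells (0.21, SE 0.34, adjusted p = 0.649), and with library totals alone they were called higher (1.23, adjusted p = 0.0140).

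At 24 h Igf2bp1 was at 341, 277 and 411 CPM in wt cells, 195, 225 and 327 CPM in KO#1, and 575, 304 and 312 CPM in the KO#2-labelled libraries. It fell in wt cells (log2 -0.96, SE 0.34, adjusted p = 0.0258) and in KO#1 (-0.98, SE 0.34, adjusted p = 0.0288). The KO#2-labelled libraries had a change of 0.28 (SE 0.34, adjusted p = 0.580), or -0.08 without replicate 1 at 24 h. The call in wt cells was lost without replicate 1 (-0.74) or 3 (-0.97) at 0 h, or without replicate 1 (-0.97) or 2 (-0.85) at 24 h. In KO#1 it was lost without replicate 1 at 0 h (-0.77), or without replicate 1 (-0.84) or 2 (-0.93) at 24 h.

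Igf2bp2 (ENSMUSG00000033581, chr16:22059009-22163299, minus strand), described as a transcriptional target of Hmga2, was lower in KO#1 at both times. At 0 h it was at 119, 94.9 and 114 CPM in wt cells, 50.3, 58.6 and 49.6 CPM in KO#1, and 48.1, 23.2 and 42.9 CPM in the KO#2-labelled libraries. The differences were -1.05 (SE 0.29, adjusted p = 0.0324) and -1.52 (SE 0.29, adjusted p = 0.000957), and no KO library reached a wt library. The call for KO#1 was kept without wt replicate 2 and lost without any other of the 6 libraries, between -1.14 and -0.98, and was lost with library totals alone (-0.90).

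At 24 h Igf2bp2 was at 28.7, 34.2 and 45.3 CPM in wt cells, 11.5, 14.7 and 18.1 CPM in KO#1, and 37.3, 19.6 and 23.4 CPM in the KO#2-labelled libraries. KO#1 was lower (log2 -1.28, SE 0.29, adjusted p = 0.00743) with no overlap, a call that held with any 1 library left out. The KO#2-labelled libraries overlapped with wt cells (-0.43, SE 0.28, adjusted p = 0.246, and 0.60 with library totals alone). During the 24 h it fell in wt cells (-1.60, SE 0.29, adjusted p = 0.000264) and in KO#1 (-1.84, SE 0.30, adjusted p = 0.000174). The change in the KO#2-labelled libraries was -0.51 (SE 0.28, adjusted p = 0.20).

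Igf2bp3 (ENSMUSG00000029814, chr6:49085223-49214957, minus strand) was not called in any of the comparisons in the fit of all groups with the filter and TMM scaling given above. It was at 61.0, 61.4 and 64.9 CPM in wt cells at 0 h and at 32.8, 42.3 and 54.5 CPM at 24 h, with no overlap and a log2 change of -0.53 (SE 0.25, adjusted p = 0.0838). This change passed with at least 10 counts required in every library (-0.63, adjusted p = 0.0313), without replicate 3 at 24 h (-0.78) and with library totals alone (-1.13, adjusted p = 0.0114). In KO#1 the change was -0.42 (SE 0.25, adjusted p = 0.185), and it passed with library totals alone (-1.18, adjusted p = 0.00895). In the 12 KO libraries it ranged from 31.0 to 65.8 CPM. The KO differences from wt cells lay between -0.32 and -0.02 with standard errors of 0.25, and with library totals alone they were above 0 in KO#1 at 0 h and in the KO#2-labelled libraries at both times, where the one at 24 h passed (0.95, adjusted p = 0.0222). Malsu1, on the other strand, shares 1529 bases with the gene and had 41 to 510 counts.

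The difference in the 24 h response between KO and wt cells was tested as an interaction. In KO#1, 0 of 7 passed (0.391% of all genes called), with 1 at an unadjusted p under 0.05, and in the KO#2-labelled libraries 0 of 7 passed (1.47% of all genes called), with 4. DESeq2 gave the same counts of 0, with 1.84% and 9.33% of all genes called. The 4 were Hmga2 (1.86, SE 0.86, adjusted p = 0.198), Lin28a (1.69, SE 0.66, adjusted p = 0.144), Igf2bp1 (1.25, SE 0.48, adjusted p = 0.142) and Igf2bp2 (1.09, SE 0.40, adjusted p = 0.130). Without the filter on low counts Hmga2 (adjusted p = 0.0117) and Lin28a (adjusted p = 0.00519) passed.

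Levels of different genes were compared as CPM per kilobase of the annotated transcript. In wt cells at 0 h the order was Hmga1 (175.2 ± 39.7, SD, n = 3), Igf2bp1 (79.8 ± 25.0), Igf2bp2 (28.1 ± 3.28), Lin28a (18.5 ± 7.10), Igf2bp3 (14.4 ± 0.501), Hmga2 (4.76 ± 1.22) and Lin28b (0.716 ± 0.311). Lin28a overlapped with Igf2bp3, and its highest library (24.02) stayed just below the lowest of Igf2bp2 (24.3). At 24 h in wt cells Hmga1 was at 405 ± 67.7, Lin28a at 119 ± 16.9 and Igf2bp1 at 40.9 ± 8.0. Igf2bp3 (9.94 ± 2.51) and Igf2bp2 (9.25 ± 2.18) overlapped, followed by Lin28b (2.03 ± 0.0695) and Hmga2 (1.55 ± 0.0608), which ranked last. In KO#1 at 0 h Igf2bp1 (58.8 ± 14.9) and Hmga1 (47.6 ± 21.6) overlapped at the top. In the KO#2-labelled libraries at 24 h Lin28a (76.3 ± 31.1), Igf2bp1 (47.4 ± 18.4) and Hmga1 (42.0 ± 20.4) led the order, each overlapping with the next of these, and Hmga1 did not overlap with Igf2bp3 below it (9.43 ± 2.09).

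Further genes of the pathway came from 2 lists. Of 16 genes of let-7 processing, 4 rose and 8 fell in wt cells at 24 h, and the numbers were the same in KO#1. The KO#2-labelled libraries had 2 that rose and 1 that fell. So 12, 12 and 3 of 16 were called, where 50.7%, 40.8% and 26.0% of all genes were. Ago2, the slicing subunit of the silencing complex, fell in each line (log2 -2.66 in wt cells, -2.57 for KO#1 and -1.40 for the KO#2-labelled libraries, with adjusted p = 0.000398, 0.000852 and 0.0411). Trim25, a cofactor of Lin28a, fell in wt cells and KO#1 (-2.28 and -1.25, adjusted p = 0.000154 and 0.0135) and was at -0.77 in the KO#2-labelled libraries (adjusted p = 0.138). Khsrp, which promotes let-7 processing, also fell in both (-1.65 and -1.57, adjusted p = 0.00548 and 0.00988) and was at -0.07 in the KO#2-labelled libraries (adjusted p = 0.924). Hnrnpa1, which binds let-7 precursors, rose by 1.74 in wt cells (adjusted p = 0.00381) and 1.39 in KO#1 (adjusted p = 0.0187), and its value in the KO#2-labelled libraries was 1.15 (adjusted p = 0.0617). The list's median change was -0.60 in wt cells against 0.03 over all genes. For KO#1 it was -0.71 against 0.00, and for the KO#2-labelled libraries -0.08 against -0.03. Against wt cells, 0 of 16 were called in KO#1 at either time (6.67% of all genes called at 0 h and 9.86% at 24 h). In the KO#2-labelled libraries 2 were higher and 3 lower at 0 h (38.1% of all genes called), and 5 were higher and 1 lower at 24 h (37.3%).

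Of 19 other known let-7 targets, 5 rose and 5 fell in wt cells, 4 rose and 6 fell in KO#1, and 6 rose and 1 fell in the KO#2-labelled libraries. That makes 10, 10 and 7 of 19, where 50.7%, 40.8% and 26.0% of all genes were called. The median was -0.12, -0.00 and 0.29. Myc, a growth regulator, rose in each line, by 3.50 in wt cells (adjusted p = 7.53e-06), 4.48 for KO#1 and 3.95 for the KO#2-labelled libraries. Arid3a, a DNA-binding protein gene, fell in each line (-3.07, -1.29 and -1.32). Igf1r, the IGF1 receptor, fell in wt cells (-2.94, adjusted p = 0.000338) and KO#1 (-1.69, adjusted p = 0.0177), and its value in the KO#2-labelled libraries was -0.78 (adjusted p = 0.275). At 0 h, 2 of 19 were higher and 9 lower in the KO#2-labelled libraries than in wt cells (38.1% of all genes called, 16.6% lower), and 0 of 19 were called in KO#1 (6.67% of all genes). At 24 h, 4 were higher and 2 lower in the KO#2-labelled libraries (37.3% of all genes called), and 2 were lower in KO#1 (9.86% called, 3.61% lower).

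Feeder fibroblast genes moved with the groups. Their relation with the 7 genes was tested within groups, and their part in the differences between groups was not tested. The summed level of 8 fibroblast markers was 109.9 to 389.8 CPM in wt cells at 0 h, 183 to 514 CPM in KO#1 and 331 to 897 CPM in the KO#2-labelled libraries. At 24 h it was 19.0 to 34.5 CPM, 38.7 to 51.8 CPM and 70.9 to 219 CPM. In wt cells 6 of 8 fell at 24 h and 1, Dcn, rose from 0 counts in each library at 0 h to 5.79 ± 2.20 CPM (SD, n = 3). In the KO#2-labelled libraries, 4 of 8 were higher than in wt cells at 0 h (38.1% of all genes called) and 6 of 8 at 24 h (37.3%). In KO#1 0 of 8 were called at 0 h (6.67% of all genes), and 1 was higher and 1 lower at 24 h (9.86%). Within groups, the deviations of a gene were compared with those of the fibroblast score over the 18 libraries. Hmga2 had r = 0.703 (exact permutation p = 0.0115, two-sided, adjusted over 7 relations p = 0.0807) and rho = 0.595 (exact permutation p = 0.0446, adjusted p = 0.194). Without the 2 libraries farthest from the median, replicate 3 of wt cells and of the KO#2-labelled libraries at 0 h, r was 0.782. The other genes had r from -0.150 (Lin28a) to 0.566 (Hmga1), and no relation passed. In the 12 KO libraries alone, Hmga2 passed (r = 0.904, adjusted p = 0.0216). Replicate 1 of the KO#2-labelled libraries at 24 h had both the highest fibroblast sum of its group and the highest Hmga2 level. In wt cells at 0 h the order was the other way, since replicate 3 had the lowest fibroblast sum (109.9 CPM) and the highest Hmga2 level (22.3 CPM).

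**Figure D4:**
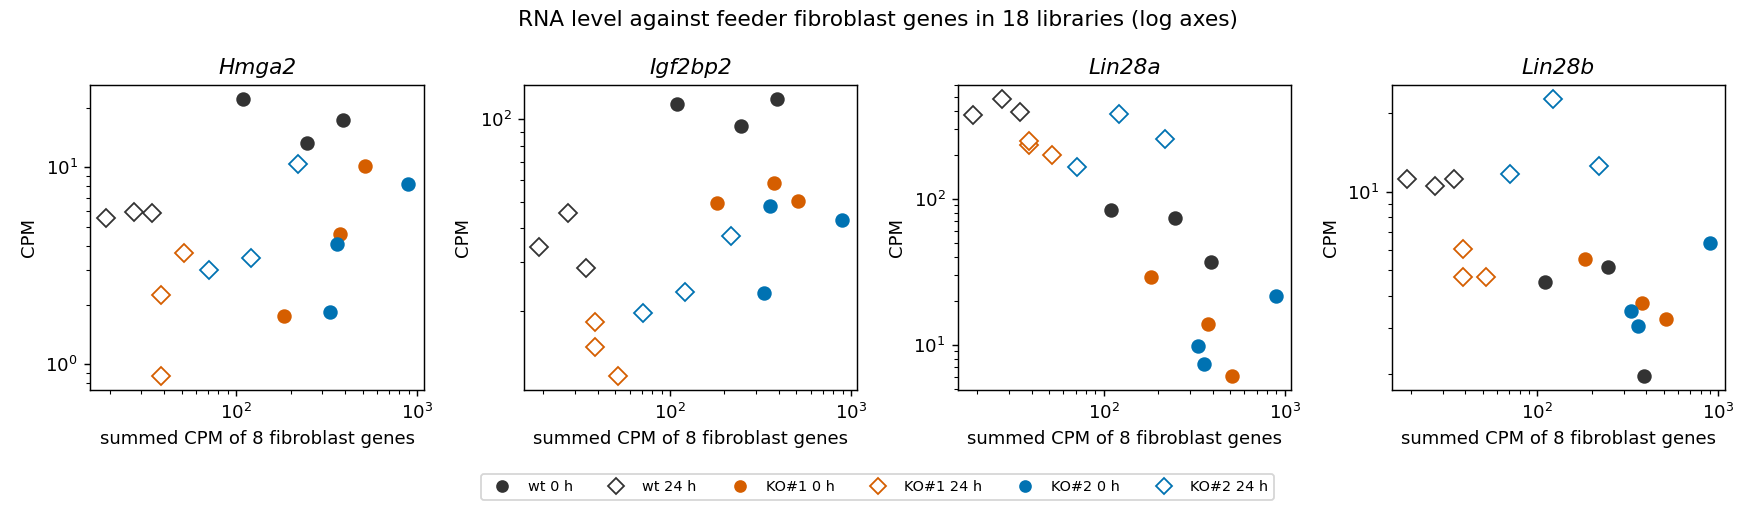
CPM of 4 of the genes against the summed CPM of 8 fibroblast markers in each library, on log axes, filled circles at 0 h and open diamonds at 24 h. The 24 h libraries of wt cells and KO#1 (19.0 to 51.8 CPM of fibroblast genes) all sit to the left of the 0 h libraries, while the KO#2-labelled libraries at 24 h reach 219 CPM and overlap with them.

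Lastly, the genes with the most similar pattern over the 18 libraries were listed for each gene by Pearson r of log2 CPM, as a description. For Hmga2 they were Arnt (0.842), Ccdc8 (0.838) and Rprd2 (0.838). For Lin28a they were Rasgrp2 (0.977), Exo1 (0.963) and S1pr2 (0.960). For Lin28b the nearest was Gm1564 (0.928), for Hmga1 Tars2 (0.947), for Igf2bp1 Larp1 (0.973), for Igf2bp2 Mex3a (0.960) and for Igf2bp3 Sec31a (0.894). The 18 libraries share group differences and unequal depth, which enter each of these values.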

How the data were processed

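The authors deposited whole-number counts per gene for 18 libraries, made from total RNA with a stranded kit. Per the study's methods, reads of 75 bases were aligned to GRCm38 with STAR and quantified with Salmon and StringTie, and the authors compared groups with DESeq2. The annotation release and the use of strand in counting are not given in the sources used here. All 18 columns were matched to samples by the description in their labels, and 0 were left unused. Of 153 pairs of libraries, 0 were identical.

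The deposited counts were analysed with R 4.3.3 and edgeR 4.0.16. The filter (filterByExpr by group, minimum count 10) kept 16619 genes, and TMM factors and a quasi-likelihood model of 6 groups were fitted to all libraries, with Benjamini-Hochberg adjusted p under 0.05 as the call. SEs were derived from each log2 fold change and its F statistic. DESeq2 1.42.0 was an alternative. log2 CPM used a prior count of 2, and 46656 within-group arrangements gave exact p-values. Totals of 3466436 to 23872837 counts set the precision. The 3-count floor covers counting error only.

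The genes named from the lists were up to 4 with the largest called change in wt cells and any called alike in both KO lines. Replicates with the same number were taken as paired in KO#1 against wt cells at 24 h, where the correlations of their deviations were 0.480, 0.223 and 0.587. Sequences were read with Python 3.11.15 from GENCODE M21 (the principal isoform, then the longest) and RefSeq. The members and lists were chosen with earlier results of these data known. Some results are not reported here.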

Additional observations from a re-analysis of the deposited data

Results flagged for a closer look

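Hic2, a transcriptional repressor gene and known let-7 target, differed in its 24 h response between the KO#2-labelled libraries and wt cells, by 1.69 on the log2 scale (SE 0.38, adjusted p = 0.0313 in edgeR's interaction test). It was the 1 gene called of the 19 other let-7 targets in this test, where 1.47% of all genes were called, and no alternative setting was run for it. It fell in wt cells (-1.73, adjusted p = 7.76e-05) and changed by -0.04 in the KO#2-labelled libraries (adjusted p = 0.937). Its mean level in wt cells went from 144.5 ± 29.9 CPM (SD, n = 3) at 0 h to 43.5 ± 10.2 CPM at 24 h. In the KO#2-labelled libraries it was 96.3 ± 10.3 CPM and 94.0 ± 13.7 CPM. In KO#1 the difference in response was 0.74 (adjusted p = 0.536).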

How the results depend on the processing

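The number of called genes moved most with scaling and with single libraries. With library totals alone, 3 of 7 were called in the KO#2-labelled libraries against wt cells at 0 h (33.1% of all genes called) and 4 at 24 h (61.4%), of which 3 were higher. For KO#1 against wt cells at 24 h, 4 were called with no filter on low counts (6.87% of all genes) and 4 with only the groups compared (13.8%). The response of the KO#2-labelled libraries had 2 called with no filter (5.90% of all genes). In the 12 KO libraries alone 1 relation with the fibroblast score passed. With 1 library left out, 3 to 6 genes were called in wt cells at 24 h, 2 to 4 in KO#1, 2 to 3 in the KO#2-labelled libraries, 1 to 2 in KO#1 against wt cells at 0 h and 3 to 5 in the KO#2-labelled libraries against wt cells at 0 h.

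Signs turned for these values, none of them called in the main setting. With library totals alone, Lin28b in KO#1 at 24 h against 0 h was -0.55, Igf2bp3 at 0 h was 0.02 in KO#1 and 0.14 in the KO#2-labelled libraries against wt cells. At 24 h the KO#2-labelled libraries then differed from wt cells by 1.01 for Hmga2, 0.36 for Lin28a, 0.60 for Igf2bp2 and 0.95 for Igf2bp3, and Igf2bp3 in the response of KO#1 was -0.05. The relation of Lin28b with the fibroblast score was 0.0518 then and 0.176 in the KO libraries alone. With at least 10 counts in every library, Igf2bp3 at 24 h was 0.01 in KO#1 and 0.08 in the KO#2-labelled libraries, Hmga2 was 0.11 in the latter, and Igf2bp1 in the response of KO#1 was 0.01. Igf2bp1 there was also 0.01 with RLE factors, 0.04 with only the groups compared and 0.01 with DESeq2, and Igf2bp3 in KO#1 at 24 h was 0.01 with only the groups compared. The causes were not tested.

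With 1 library left out, the values that turned sign ranged as follows. Hmga2 ranged from -0.54 to 0.91 in the KO#2-labelled libraries at 24 h against 0 h, from -0.82 to 0.27 against wt cells at 24 h, and from -0.20 to 1.23 in the response of KO#1. Hmga1 ranged from -0.54 to 0.15 in the response of KO#1 and from -0.28 to 0.44 in that of the KO#2-labelled libraries. Igf2bp1 ranged from -0.08 to 0.45 in the KO#2-labelled libraries at 24 h against 0 h, from -0.15 to 0.38 against wt cells at 24 h and from -0.25 to 0.20 in the response of KO#1. Igf2bp2 ranged from -0.39 to 0.00 in the response of KO#1. Igf2bp3 ranged from -0.18 to 0.23 in KO#1 at 24 h, from -0.26 to 0.14 in the KO#2-labelled libraries at 24 h and from -0.06 to 0.35 in the response of KO#1. Lin28b against wt cells at 0 h lay between -0.24 and 0.28 for KO#1, and between -0.32 and 0.29 for the KO#2-labelled libraries.

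Outside KO#1 against wt cells at 24 h replicates were not taken as paired, though some same-numbered libraries there also deviated together. In the KO#2-labelled libraries between times, the correlations were 0.457, 0.333 and -0.000551 for replicates 1, 2 and 3. Against wt cells at 0 h they were 0.150, 0.309 and -0.00642. In KO#1 between times they were -0.161, -0.0142 and -0.207. Over all pairs of groups, KO#1 and wt cells at 24 h included, same-numbered libraries had a mean correlation of 0.0531 (16 of 45 pairs over 0.1). Others had -0.0266 (25 of 90 pairs). With the replicate block, the call of Hmga1 in KO#1 at 24 h against 0 h was lost (0.92, adjusted p = 0.0646). Counts of 14 to 268 limit Hmga2, and 6 counts the lowest Lin28b library.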
